A study of Mus musculus with 4 samples.

Results

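The Toll-like receptors and co-receptors described here are the 10 genes Tlr1, Tlr2, Tlr4, Tlr6, Tlr7, Tlr8, Tlr9, Tlr13, Cd14 and Ly96, taken by symbol from the deposited count tables, which hold 31017 gene symbols. All 10 were found, and all 10 passed the filter on low counts that left 12035 genes for testing. The cells were FACS-isolated bone marrow monocytes of wild-type C57BL/6 animals at 2 ages, 18 months (aged, 2 libraries) and 3 months (young, 2 libraries). Both ages carry the disease label atherosclerosis, and the labels give neither the sort markers nor whether each library had its own donor animal. The p-values therefore reflect only how far these libraries scatter, and that scatter may be technical. The series belongs to a study of bone marrow age and the clonal make-up of plaque cells that descend from smooth muscle, and the comparison here asks whether the receptor transcripts of its monocytes differ with age, at the cell surface and in endosomes.

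Toll-like receptors bind conserved microbial molecules through an outer domain of leucine-rich repeats and signal through an inner TIR domain that recruits adaptors such as MyD88. Tlr2 works as a dimer with Tlr1 or Tlr6 and binds bacterial lipoproteins at the cell surface, while Tlr4 binds lipopolysaccharide, the outer membrane lipid of Gram-negative bacteria, together with the small secreted protein MD-2, which Ly96 encodes. Cd14 is a membrane-anchored protein that hands lipopolysaccharide and lipoproteins to these receptors. Tlr7, Tlr8, Tlr9 and Tlr13 sit in endosomes and read nucleic acids: single-stranded RNA and its breakdown products for Tlr7 and Tlr8, DNA with unmethylated CpG for Tlr9, and bacterial ribosomal RNA for Tlr13. In monocytes their engagement starts cytokine and chemokine transcription.

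Gene positions are on GRCm38, the assembly also called mm10. The surface receptors lie at chr5:64924679-64933563 (Tlr1), chr3:83836272-83841767 (Tlr2), chr4:66827584-66930284 (Tlr4) and chr5:64952031-64960097 (Tlr6). Ly96 lies at chr1:16688051-16709611. The endosomal receptors lie at chrX:167304929-167330558 (Tlr7), chrX:167242696-167264329 (Tlr8), chr9:106222598-106226883 (Tlr9) and chrX:106143204-106160493 (Tlr13). Tlr1 and Tlr6 are neighbours, 18467 bases apart, and so are Tlr7 and Tlr8, 40599 bases apart. The coding sequences of Tlr1, Tlr2 and Tlr6 lie in 1 exon each, and the largest coding exon holds at least 98.8% of the coding sequence in each endosomal receptor. Coding sequences were 2973 to 3150 bases long in the endosomal receptors and 2352 to 2505 bases in the surface receptors. None of the 10 genes overlapped another annotated gene in GENCODE M21.

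The coding sequences of Tlr1 and Tlr6 matched at 80.2% of aligned bases, and their longest identical run was 229 bases. It is printed as the longest part that cannot tell these genes apart, and other parts are shared as well. The run spans chr5:64925537-64925765 in Tlr1 and chr5:64953828-64954056 in Tlr6, in the single coding exon of each and on the minus strand.
Tlr1 and Tlr6 shared run: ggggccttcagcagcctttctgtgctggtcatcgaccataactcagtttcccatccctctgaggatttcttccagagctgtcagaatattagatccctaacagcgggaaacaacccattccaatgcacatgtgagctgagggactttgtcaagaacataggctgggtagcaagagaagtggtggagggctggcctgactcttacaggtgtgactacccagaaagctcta
Of all stretches of 50 bases in the Tlr1 coding sequence, inside and outside the printed run, 19.4% also occurred in Tlr6. In the other 27 pairs among the 8 receptors the longest identical run was 10 to 16 bases, and 0 pairs shared a stretch of 50 bases. Reads from the shared part fit both genes, and the sources used here do not give how the authors counted such reads. The separate levels of Tlr1 and Tlr6 are uncertain to that extent.

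RefSeq promoter windows on GRCm38.p6 were searched for 6 of the 10 genes, Tlr1, Tlr2, Tlr6, Tlr8, Tlr9 and Tlr13, with 8 windows in all. The 250 bases before each start were searched on both strands. The promoters of the other genes were not searched, so the counts of windows below describe these 6 genes only. The core GAGGAA, bound by PU.1 and other ETS factors of myeloid cells, occurred in 4 of 8 windows, in Tlr1, Tlr8, Tlr9 and Tlr13, against 23.3% of all 32851 windows of the same length. The AP-1 site TGANTCA occurred in 1 of 8 windows, that of Tlr9, against 6.75% of all windows; this motif reads alike on both strands and is counted once. The interferon-response core, 2 copies of GAAA with 2 bases of any kind between them, occurred in 1 of 8 windows, 1 of the 2 of Tlr6, as 2 overlapping matches, against 2.98% of all windows. Among the 11861 windows of tested genes the shares were 23% for GAGGAA, 4.51% for the AP-1 site and 2.87% for the interferon-response core. Stretches of 120 bases that hold no annotated exon are shown for the windows with a match, with matches in capitals. Those of Tlr1, Tlr8, Tlr9 and Tlr13 end just before the annotated gene, whereas that of Tlr6 lies before a RefSeq start inside the annotated gene, in its intron.
Tlr1, chr5:64933564-64933683, minus strand: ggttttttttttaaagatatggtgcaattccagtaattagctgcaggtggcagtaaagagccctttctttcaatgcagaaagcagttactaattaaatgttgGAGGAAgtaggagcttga
Tlr6, chr5:64959167-64959286, minus strand: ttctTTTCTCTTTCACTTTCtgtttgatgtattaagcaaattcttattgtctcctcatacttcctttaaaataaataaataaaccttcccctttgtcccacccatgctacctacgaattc
Tlr8, chrX:167264330-167264449, minus strand: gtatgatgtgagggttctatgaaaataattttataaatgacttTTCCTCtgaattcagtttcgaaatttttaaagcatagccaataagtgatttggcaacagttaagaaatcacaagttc
Tlr9, chr9:106222478-106222597, plus strand: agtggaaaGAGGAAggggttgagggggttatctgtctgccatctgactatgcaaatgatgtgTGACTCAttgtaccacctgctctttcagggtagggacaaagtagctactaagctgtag
Tlr13, chrX:106143084-106143203, plus strand: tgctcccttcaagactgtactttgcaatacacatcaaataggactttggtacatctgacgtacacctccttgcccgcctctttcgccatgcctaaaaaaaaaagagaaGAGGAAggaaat
A match gives letters only and is not evidence of binding.

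Tlr13 and Tlr2 were by far the most abundant of these transcripts and Tlr9 the scarcest, at both ages. Levels between genes are given as CPM per kilobase of exon, where CPM are the usual counts scaled to library size with TMM factors. In young monocytes Tlr13 stood at 102 ± 3.52 and Tlr2 at 72.3 ± 0.031 CPM per kilobase (SD, n = 2). Tlr8 followed at 26.3 ± 2.24, Ly96 at 22.1 ± 0.389, Cd14 at 16.5 ± 1.28, Tlr7 at 16.1 ± 0.298 and Tlr4 at 13.8 ± 0.044 CPM per kilobase. The lowest were Tlr6 at 8.56 ± 0.023, Tlr1 at 4.20 ± 0.401 and Tlr9 at 2.16 ± 0.104 CPM per kilobase. The order was the same in aged monocytes, with Tlr13 at 92.0 ± 2.60, Tlr2 at 78.2 ± 3.25 and Tlr9 at 1.59 ± 0.074 CPM per kilobase (SD, n = 2). Neighbours in this order differed beyond the range of their libraries, except Cd14 and Tlr7 in the young and Ly96 and Cd14 in the aged libraries. The partners of Tlr2 were far below it, with 0.0580 ± 0.00552 Tlr1 and 0.118 ± 0.000366 Tlr6 transcripts per Tlr2 transcript in the young libraries after division by length. Ly96 exceeded Tlr4 in every library, by a ratio of 1.58 to 1.71.

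**Figure D1:**
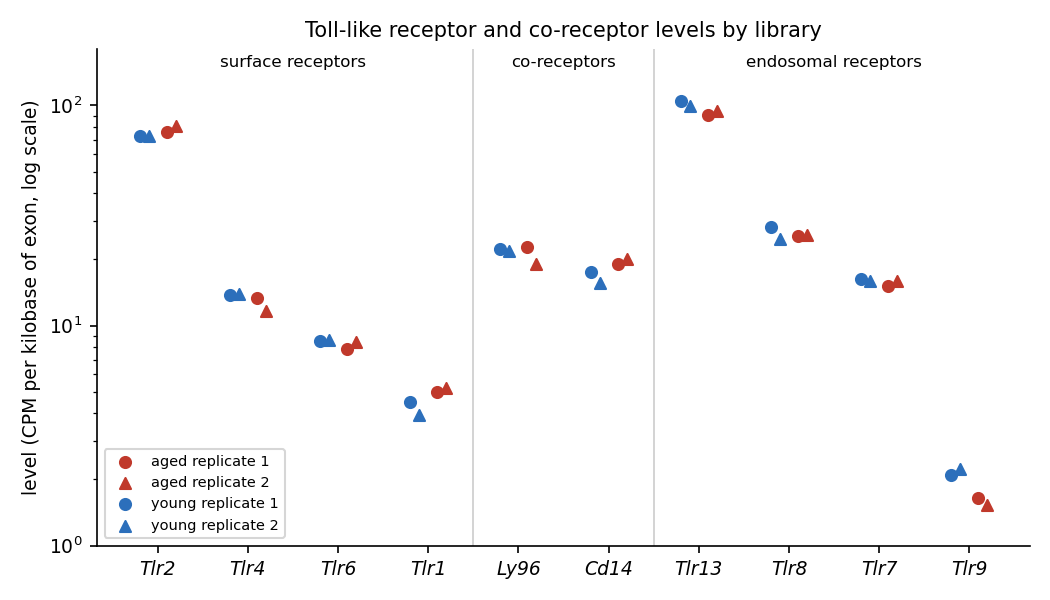
Level of each receptor and co-receptor as CPM per kilobase of exon (log scale), 1 point per library, blue for young and red for aged, circles for replicate 1 and triangles for replicate 2. Tlr13 and Tlr2 lie between 72.3 and 105 in all 4 libraries and Tlr9 between 1.53 and 2.24, while the points of the 2 ages lie close together within each gene.

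Aged and young monocytes showed no receptor or co-receptor change that passed the test. Of the 10 genes, 0 passed edgeR's quasi-likelihood test at an adjusted p under 0.05, where 5.77% of all tested genes passed, 2.87% higher and 2.89% lower in aged. Among the 8809 genes at least as abundant as Tlr9, the lowest of the 10, 7.05% passed. DESeq2 also called 0 of the 10 (5.54% of its genes called) and limma-voom 0 (6.72%). An unadjusted edgeR p under 0.05 was found for 3 of the 10, Tlr9, Tlr13 and Cd14, where 21.1% of all tested genes had one, 10.1% with higher and 11% with lower aged levels. The median size of the log2 change was 0.13 over the 10 genes and 0.15 over all tested genes. The groups did not overlap in 8 of the 10 genes, 3 higher and 5 lower in aged, where 51.6% of all tested genes did not overlap, 25.9% higher and 25.7% lower.

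Among the surface receptors, Tlr1 and Tlr2 had higher and Tlr4 and Tlr6 lower estimates in aged monocytes, and none passed. Tlr2, which pairs with the other lipoprotein receptors, stood at 229 and 243 CPM in aged libraries against 218 and 218 CPM in young ones. Both aged libraries lay above both young ones, and the 1.08-fold difference had a 95% interval of 0.987 to 1.18 (edgeR adjusted p = 0.307). Tlr1, its partner for triacylated lipoproteins, stood at 16.6 and 17.4 CPM in aged libraries against 14.99 and 13.1 CPM in young ones. These groups did not overlap either, at a fold of 1.21 (95% interval 0.989 to 1.47, edgeR adjusted p = 0.26). Tlr6, its partner for diacylated lipoproteins, stood at 29.2 and 31.5 CPM in aged libraries against 31.84 and 31.96 CPM in young ones. The aged libraries lay below the young ones by less than the distance between them, with a fold of 0.951 (0.820 to 1.10, edgeR adjusted p = 0.714).

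The Tlr1 and Tlr6 estimates pointed in opposite directions in genes that share identical sequence. The ratio of Tlr1 to Tlr6 per kilobase was 0.634 and 0.617 in aged libraries against 0.525 and 0.456 in young ones. With their counts added, an alternative chosen after seeing the data, the sum was 45.9 and 48.9 CPM in aged libraries against 46.8 and 45.1 CPM in young ones. The log2 change of the sum was 0.043 ± 0.086 (standard error of the edgeR fit, adjusted p = 0.821), and its groups overlapped. For log2 changes, ± gives this standard error throughout, not the SD between libraries.

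Tlr4, the lipopolysaccharide receptor, stood at 73.8 and 64.5 CPM in aged libraries against 76.6 and 77.0 CPM in young ones. The lower aged estimate rested mainly on aged replicate 2, and the fold was 0.901 (95% interval 0.791 to 1.03, edgeR adjusted p = 0.341). Without aged replicate 2 the log2 change was -0.060, against -0.15 with all 4 libraries. Its co-receptor gene Cd14, at chr18:36725067-36726798 and with a coding sequence in 2 exons, stood at 33.1 and 34.8 CPM in aged libraries against 30.2 and 27.1 CPM in young ones. Both aged libraries were above both young ones, a 1.18-fold difference with an unadjusted 95% interval of 1.01 to 1.38 that did not pass over all genes (edgeR adjusted p = 0.207). Ly96, which encodes the lipopolysaccharide-binding partner MD-2, stood at 23.2 and 19.5 CPM in aged libraries against 22.8 and 22.3 CPM in young ones. Its groups overlapped, the fold was 0.948 (0.789 to 1.14, edgeR adjusted p = 0.757), and the sign turned without aged replicate 2 (log2 change 0.038). The ratio of Cd14 to Tlr4 per kilobase was 1.44 and 1.73 in aged libraries against 1.27 and 1.13 in young ones, and that of Ly96 to Tlr4 was 1.71 and 1.65 against 1.62 and 1.58.

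The 4 endosomal receptors among the 10 genes all had estimates below 0 in aged monocytes, and none passed. Over all tested genes 49.3% had estimates above 0, and the sign of Tlr8 turned without young replicate 1. This direction is that of these 4 members only, and Toll-like receptors outside the 10 genes are given further below. Tlr13, the receptor for bacterial ribosomal RNA, stood at 388 and 404 CPM in aged libraries against 451 and 429 CPM in young ones. Both aged libraries lay below both young ones, a fold of 0.900 with an unadjusted 95% interval of 0.826 to 0.981 (edgeR adjusted p = 0.151). Tlr9, the CpG DNA receptor, had the lowest level and the largest estimated difference of the 10 genes, at 5.70 and 5.34 CPM in aged libraries against 7.27 and 7.78 CPM in young ones. Its counts were 143 and 116 in aged libraries against 251 and 155 in young ones, and the groups did not overlap, although their 95% Poisson intervals touched: 4.81 to 6.72 and 4.41 to 6.40 CPM in aged, 6.39 to 8.22 and 6.60 to 9.10 CPM in young libraries. The Tlr9 fold was 0.737 with an unadjusted 95% interval of 0.557 to 0.974 (edgeR adjusted p = 0.197).

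Tlr7 and Tlr8, the single-stranded RNA receptors, differed least. Tlr7 stood at 61.9 and 64.8 CPM in aged libraries against 66.5 and 64.8 CPM in young ones, a fold of 0.964 (95% interval 0.856 to 1.09, edgeR adjusted p = 0.74). The lowest young library exceeded the highest aged one by less than the last digit shown, so the groups were barely apart. Tlr8 stood at 91.8 and 92.4 CPM in aged libraries against 100 and 88.8 CPM in young ones, and its groups overlapped. Its fold was 0.974 (0.864 to 1.10, edgeR adjusted p = 0.829), and without young replicate 1 the log2 change was 0.055. The ratio of Tlr7 to Tlr8 per kilobase, 0.592 and 0.616 in aged libraries against 0.584 and 0.642 in young ones, overlapped between the ages. For these genes, intervals that reach 1.09-fold and 1.10-fold upward and 0.856-fold and 0.864-fold downward give the sizes of change that the 4 libraries leave possible.

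**Figure D2:**
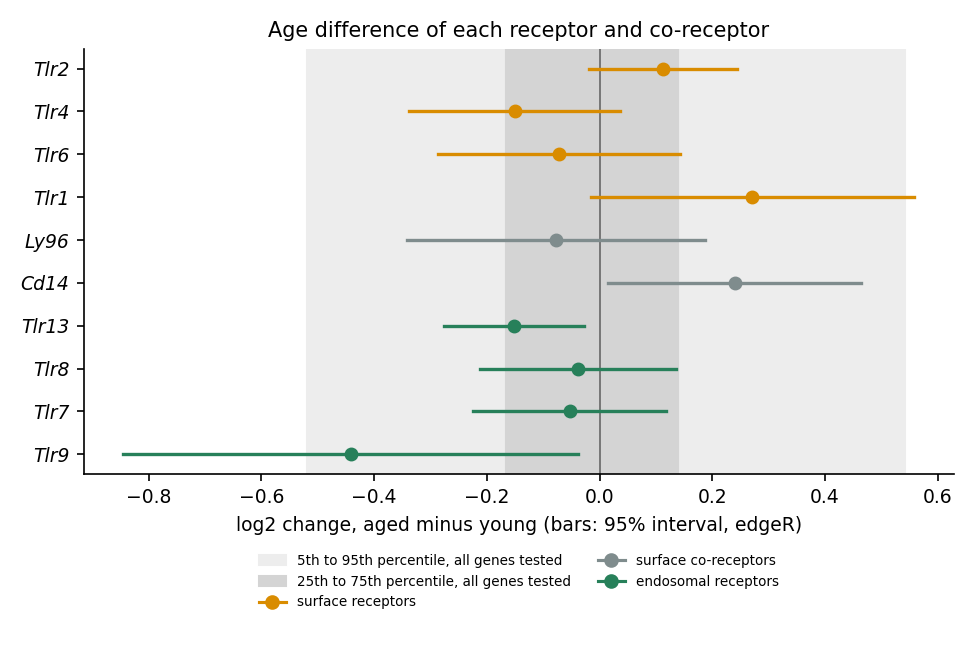
Log2 change (aged minus young, horizontal axis) of each of the 10 genes as a point with its unadjusted 95% interval from edgeR, coloured by class, over bands that hold the middle of all 12035 tested genes. Estimates run from -0.44 for Tlr9 to 0.27 for Tlr1, all inside the band of the 5th to 95th percentile (-0.52 to 0.54), and the intervals of Cd14, Tlr13 and Tlr9 leave out 0.

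Set against each other within a library, the 4 endosomal receptors made up a smaller part of the transcripts of the 8 receptors in both aged libraries. Levels per kilobase summed over Tlr7, Tlr8, Tlr9 and Tlr13 were 56.5% and 56.4% of the sum over all 8 receptors in aged libraries against 60.4% and 59.1% in young ones. The means were 56.5% ± 0.059 and 59.7% ± 0.886 (SD, n = 2), an aged minus young difference of -3.25 percentage points, and the groups did not overlap. The share is given as a description with no test, and 2 libraries against 2 could not give an exact two-sided permutation p below 0.33. Most of the difference lay in the pair at the top of the order: Tlr13 made up 38.4% and 38.7% of the summed level in aged libraries against 41.8% and 41.3% in young ones, and Tlr2 made up 32.4% and 33.2% against 28.9% and 30.0%. The ratio of Tlr13 to Tlr2 per kilobase, which needs no scaling between libraries, was 1.19 and 1.17 in aged libraries against 1.45 and 1.38 in young ones. Without Tlr13 the endosomal share was 29.2% ± 0.272 in aged and 31.1% ± 1.09 in young libraries, a difference of -1.88 percentage points. The median log2 change was -0.10 over the 4 endosomal receptors, 0.020 over the 6 surface genes and -0.0044 over all tested genes.

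**Figure D3:**
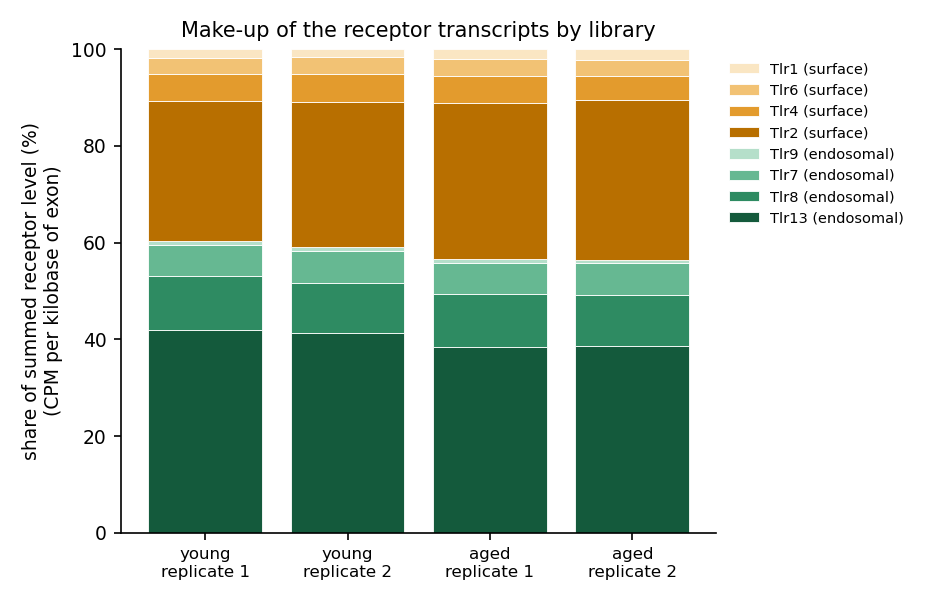
Share of each of the 8 receptors in the summed level per kilobase of exon (percent, vertical axis), 1 bar per library, with endosomal receptors in green and surface receptors in orange. The top of the green part lies at 60.4% and 59.1% in the young and at 56.5% and 56.4% in the aged libraries.

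The other genes of the pathway were read from lists chosen for their roles, with earlier results of these data known. Of 88 tested genes 13 rose and 0 fell, 14.8%, with a median log2 change of 0.10. Of all tested genes 5.77% passed, 2.87% higher and 2.89% lower in aged. Because of how the lists were chosen, these shares are a description and not a test of the pathway. Upstream of signalling, Cd36, a scavenger receptor that works with Tlr2 and Tlr6, rose from 9.06 and 9.63 CPM in the young to 33.7 and 33.8 CPM in the aged libraries (edgeR adjusted p = 6.2e-06), as the only 1 of 5 tested surface accessory genes. None of the 4 other Toll-like receptors tested with edgeR passed (1 had an unadjusted p under 0.05, and DESeq2 and limma-voom called 0). Estimates were above 0 for Tlr3 (log2 change 0.31, at 1.20 to 1.71 CPM) and Tlr11 (0.81). They were below 0 for Tlr5 (-0.22) and Tlr12 (-0.22). These 4 genes were not sorted into surface and endosomal receptors here. The smallest p among them was that of Tlr11, which binds a parasite and bacterial protein and stood at 4.71 and 3.08 CPM in aged libraries against 2.58 and 1.81 CPM in young ones (edgeR adjusted p = 0.169, and 0.0429 with no low-count filter).

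Of 14 genes for receptor folding and trafficking, which include the endosomal chaperone Unc93b1, 1 rose, Rab10. The log2 change of Rab10, a small GTPase that carries Tlr4 to the surface, was 0.26 ± 0.058 (standard error, edgeR adjusted p = 0.0292). Rab10 did not pass without young replicate 1 (0.23) or young replicate 2 (0.0922). Of 11 endolysosomal proteases and nucleases, which trim endosomal receptors or their ligands, 3 rose. Lgmn, the asparagine endopeptidase, rose from 54.2 and 53.9 CPM in the young to 72.4 and 88.9 CPM in the aged libraries (edgeR adjusted p = 0.00867). The cathepsin genes Ctsb (log2 change 0.28 ± 0.051) and Ctss (0.24 ± 0.054) rose with edgeR adjusted p of 0.012 and 0.0294. Without young replicate 1 none of these 3 passed (adjusted p = 0.0559, 0.0964 and 0.133), and Ctss also missed the threshold without aged replicate 2 (0.102) or young replicate 2 (0.0853).

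Of 23 tested adaptors and kinases 2 rose, and of 15 negative regulators 2 rose. Pik3ap1, an adaptor that links the receptors to PI3-kinase, rose by 0.63 ± 0.073 on the log2 scale (edgeR adjusted p = 0.000868) and passed with each library left out. Myd88, the adaptor that most of these receptors share, rose from 167 and 168 CPM in the young to 201 and 201 CPM in the aged libraries (edgeR adjusted p = 0.0273). Myd88 did not pass without aged replicate 2 (0.057), young replicate 1 (0.192) or young replicate 2 (0.114). Among the regulators, Otulin, a deubiquitinase for linear ubiquitin chains, rose by 0.41 ± 0.082 and Tnfaip3, the ubiquitin-editing enzyme A20, rose by 0.45 ± 0.099 on the log2 scale (edgeR adjusted p = 0.0172 and 0.0283). Otulin missed the threshold without aged replicate 2 (0.0594) or young replicate 1 (0.154), as did Tnfaip3 without young replicate 1 (0.169) or young replicate 2 (0.11). Of the 4 interferon regulatory factors 0 passed with edgeR, 2 had an unadjusted p under 0.05, and DESeq2 and limma-voom each called 1. The smallest p was that of Irf5, which drives inflammatory cytokine genes, at 610 and 650 CPM in aged libraries against 538 and 551 CPM in young ones (edgeR adjusted p = 0.0522, DESeq2 0.0476, limma-voom 0.0351).

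Early target genes of the pathway had the highest median of these pathway lists, 0.50 over 12 tested genes of 16 listed. Of the 12 genes, 4 rose and 0 fell past the threshold. Estimates were above 0 for 9 and below 0 for 3, Il1b (log2 change -0.16), Cxcl10 (-0.28) and Acod1 (-0.15). Il1b, the most abundant, stood at 65.5 and 65.2 CPM in aged libraries against 79.1 and 66.6 CPM in young ones. Counts of Il6, Il10, Il12b and Ifnb1 were too low for testing. The chemokine gene Ccl3 rose from 11.1 and 10.5 CPM in the young to 29.4 and 24.6 CPM in the aged libraries (edgeR adjusted p = 0.00025), and the chemokine gene Cxcl2 from 10.6 and 8.43 to 22.7 and 22.4 CPM (edgeR adjusted p = 0.000731). Both passed with each library left out. Ier3, an immediate early survival gene, rose by 0.74 ± 0.12 (edgeR adjusted p = 0.00748, and 0.0527 without young replicate 1). Socs3, a feedback inhibitor of cytokine signalling, rose by 0.66 ± 0.16 (edgeR adjusted p = 0.0391, and 0.14, 0.0991 and 0.108 without aged replicate 2, young replicate 1 and young replicate 2). Its log2 change was 0.39 without aged replicate 2. Of a separate list of 11 immediate early and heat shock genes, 10 rose, among them Zfp36, Junb and Fos, and their summed level was 3110 to 3219 CPM in the aged and 1419 to 1458 CPM in the young libraries. Its part in the changes of the target genes was not tested.

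**Figure D4:**
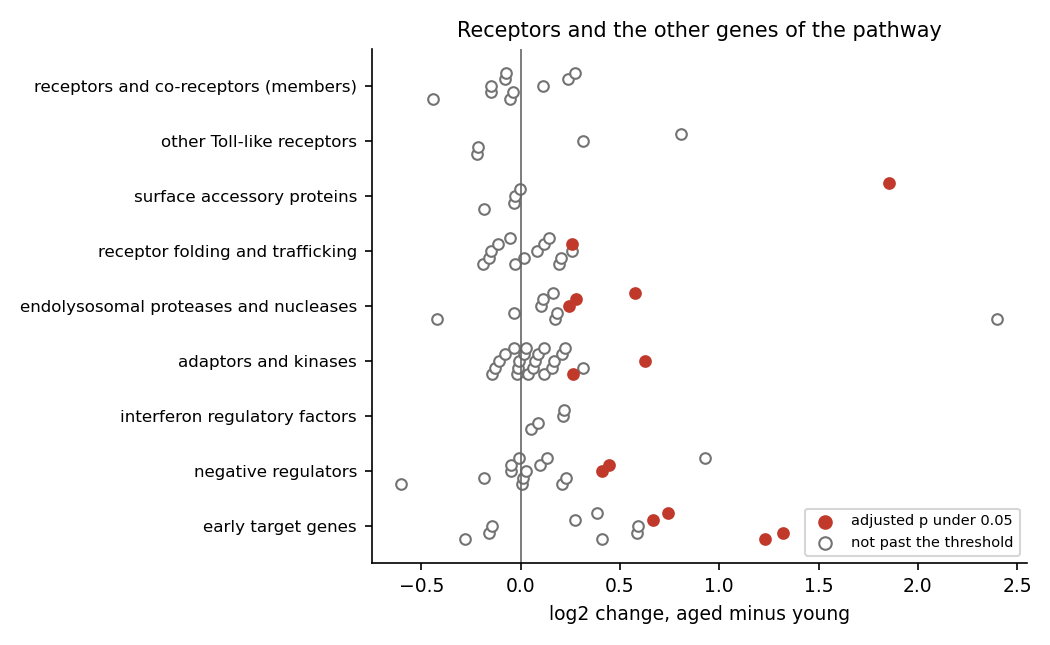
Log2 change (aged minus young) of every tested gene of each list, from the receptors to their early targets, with genes past the edgeR threshold marked apart from the rest. The 10 receptors and co-receptors hold 0 marked genes, while 13 of the 88 genes of the other lists are marked, all above 0.

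Transcript levels of several cell type markers differed between the ages, and in bulk RNA fewer cells of a type and less RNA per cell cannot be told apart. All 8 monocyte markers were present, led by Lyz2 and Csf1r and summing to 38886 to 38964 CPM in the aged and 36120 to 38663 CPM in the young libraries, and 4 of 8 rose, among them Csf1r. Markers of classical monocytes, led by Chil3 and Ly6c2, summed to 7459 to 7742 CPM in the aged and 9748 to 9913 CPM in the young libraries, and 3 of 5 fell. Ccr2, of the same list, had a higher aged estimate (log2 change 0.17) that did not pass. Markers of non-classical monocytes, led by Cx3cr1 and Adgre4, summed to 1138 to 1281 against 768 to 828 CPM, and 6 of 8 rose, among them Adgre4 and Nr4a1. The other genes of that list did not pass. Spn had a lower aged estimate (-0.24), and Cx3cr1, the largest part of the sum, overlapped (605 and 393 CPM in aged, 442 and 356 CPM in young libraries). Neutrophil markers, led by S100a9 and S100a8, summed to 28558 to 28971 CPM in the aged and 27936 to 29169 CPM in the young libraries. Much of this sum came from S100a9 (7929 and 8385 CPM in the aged libraries) and S100a8 (6078 and 6357 CPM), and it does not measure neutrophil content. Of 9 genes Ltf and Ngp rose and S100a8 and Cxcr2 fell. The part of cells with these markers in the receptor levels was not tested.

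Markers of other myeloid cells also differed. Marrow macrophage markers, led by Adgre1 and Mrc1, summed to 288 to 296 CPM in aged against 268 to 271 CPM in young libraries, and 2 of 8 tested rose. These were the complement genes C1qb, at 30.2 and 30.1 CPM in aged libraries against 10.6 and 10.8 CPM in young ones (edgeR adjusted p = 2.5e-05), and C1qc (0.0131, and 0.117 without young replicate 1). Conventional dendritic cell markers, led by Cd209a and Flt3, summed to 201 to 203 against 170 to 177 CPM, and Flt3 and Itgax, 2 of 7, rose but missed the threshold without young replicate 1 (0.178 and 0.196). Eosinophil and basophil markers, led by Prg2 and Epx, summed to 100.2 to 101 against 79.8 to 85.6 CPM, and these 2 of 4 rose but missed the threshold without young replicate 1 (0.205 and 0.287), Prg2 also without young replicate 2 (0.0715) and Epx without aged replicate 2 (0.0754). Of T and NK cell markers, led by Nkg7 and Cd3d, 0 of 6 passed with edgeR, 1 had an unadjusted p under 0.05, and DESeq2 and limma-voom called 0. Of erythroid markers, led by Hba-a1 and Hbb-bt, 0 of 5 passed with edgeR, 2 had an unadjusted p under 0.05, and DESeq2 and limma-voom called 0. The part of these cells in the receptor levels and in the rises of Cd36, Lgmn, Ctsb and Ctss was not tested.

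Tlr9 is known for its expression in B cells and plasmacytoid dendritic cells, and the summed markers of both were higher in the aged libraries, where the Tlr9 estimate was lower. B lineage markers, led by Cd79b and Cd79a, summed to 52.1 to 54.5 CPM in the aged and 31.5 to 34.4 CPM in the young libraries, and 3 of 9 tested rose (2 with DESeq2). Of these, Cd79b and Ms4a1 missed the edgeR threshold without aged replicate 2 (adjusted p = 0.0755 and 0.0743), young replicate 1 (0.154 and 0.143) or young replicate 2 (0.0843 and 0.0717). Plasmacytoid dendritic cell markers, led by Spib and Siglech, summed to 31.5 to 34.3 against 21.0 to 21.9 CPM, and 1 of 6 tested, Spib, rose (edgeR adjusted p = 0.0116) and missed the threshold narrowly without young replicate 1. None of the markers of either list was at 0 in all libraries. The part of these cells in the Tlr9 level was not tested.

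For Cd14 and Tlr13, the surface and the endosomal gene with the smallest p, the genes with the most similar pattern over the 4 libraries were sought among 9049 genes of at least 5 CPM. The measure was the Euclidean distance between log2 CPM values centred on each gene's mean. Nearest to Cd14 were 2410131K14Rik (0.016), Lxn (0.019) and Specc1 (0.023), and nearest to Tlr13 were Hlcs (0.0076), Dennd1a (0.014) and Slc12a9 (0.014). None of these 6 passed the edgeR test, with adjusted p from 0.154 for Specc1 to 0.299 for Hlcs.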

How the data were processed

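RNA was sequenced in 4 libraries of sorted bone marrow monocytes, 2 of each age (18 and 3 months). For each library the authors deposited a table of raw, unscaled counts by gene symbol. Per the labels' protocols, libraries were oligo-dT selected and strand-specific. Tools listed without roles in the submitters' processing notes are STAR 2.5.3, cutadapt, DESeq2 and HTSeq, with the mm10 build. Not given in the sources used here are the annotation, the strand setting and the treatment of reads that fit several genes. Library totals were 20159129 to 34278754 counts.

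Genes were kept by filterByExpr (minimum count 10, minimum total 15), scaled with TMM factors and tested for age, two-sided, by edgeR 4.0.16 (quasi-likelihood, R 4.3.3), with p-values adjusted by Benjamini-Hochberg over 12035 genes at a threshold of 0.05. DESeq2 1.42.0 and limma-voom (limma 3.58.1) were alternatives, beside other scalings and filters, each library left out, and a replicate block. Exon and coding lengths came from GENCODE M21, and promoter windows from RefSeq. Intervals on counts cover counting error only. Values after ± are the SD of 2 libraries for levels, ratios and shares, and the standard error of the edgeR fit for log2 changes. The scripts were tested on simulated data.

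The members and lists were chosen with earlier results of these data known. All 10 members were named; from each other list, the genes past the threshold, up to 4 per direction by p, or else the gene with the smallest p; from each marker list, the 2 most abundant and up to 2 per direction past the threshold; and 3 genes by likeness of pattern. A gene that this rule takes from a marker list is not reported here.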

Additional observations from a re-analysis of the deposited data

How the results depend on the processing

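Of the 10 receptors and co-receptors, 0 passed under each of 13 alternatives, and 128 of 130 log2 changes kept their sign. The exceptions were Ly96 without aged replicate 2 (0.038; -0.21 to 0.038 with 1 library left out) and Tlr8 without young replicate 1 (0.055; -0.12 to 0.055). Over all genes, 346 were higher and 348 lower; with no low-count filter 606 and 793 were. Leaving out 1 library gave 116 to 452 higher and 81 to 588 lower genes, the fewest without young replicate 1, the deepest library. The endosomal share difference of -3.25 percentage points was -1.88 without Tlr13 and -3.88 to -2.62 with 1 library left out. With a replicate block 801 genes were higher and 1016 lower, and the smallest adjusted p among the 10 was 0.0509, for Tlr13 (0.0509 to 0.572 over its alternatives). The replicate numbers are only shared. Deviations from the group means correlated at r = 0.201 over 9194 genes in the 2 pairs, but at r = -0.36 over the 10 receptors and co-receptors. Among 49 pathway and marker genes, 574 of 634 values kept direction and call, 32 lost the call, 22 gained it and 6 changed sign: Hbb-bt without aged replicate 1 (0.051) and without young replicate 1 (0.070), Lyz2 without young replicate 1 (-0.016), Cx3cr1 without aged replicate 1 (-0.023), and Cd3d without aged replicate 2 (-0.27) and without young replicate 1 (-0.020). With 1 library left out these ran from -0.11 to 0.070 for Hbb-bt, -0.016 to 0.085 for Lyz2, -0.023 to 0.60 for Cx3cr1 and -0.27 to 0.30 for Cd3d. Counts of 116 to 251 limit the precision for Tlr9.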
